A study of Mus musculus with 5 samples.

Results

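Whole BM collected 7 days after CTX (D7 CTX) was compared with whole BM of untreated mice (naive) by single-cell RNA sequencing, 1 library each. A cell was used if it had 200 or more detected genes and if under 20% of its unique molecular identifiers (UMIs) came from mitochondrial genes. This gave 7104 naive and 8290 D7 CTX cells, 15394 of the 25975 cells that pass this filter in the 5 libraries of the series. CTX had been injected into the peritoneum at 150 mg/kg, and the naive mice were untreated. The other 3 libraries were whole BM on day 2 and CD11b+Ly6Chi monocytes sorted from naive and treated mice. The mice were of the BALB/c strain, and cells of 3 mice were pooled in equal numbers for each whole BM library. Red cells had been lysed and dead cells depleted, so erythroid shares describe what was left after lysis. The labels call the material mononuclear, yet cells with neutrophil transcripts made up the largest group in both libraries.

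CTX is an alkylating agent that crosslinks DNA and kills dividing cells, and the marrow refills from surviving progenitors in the days that follow. Neutrophils are built in steps: early progenitors transcribe the azurophil granule proteases and Mpo, pre-neutrophils the specific granule proteins such as Ltf, Camp and Ngp, and later cells the gelatinase granule proteins and the receptors of mature neutrophils. Stefins A are small cytosolic inhibitors of cysteine proteases such as the lysosomal cathepsins, and in the mouse their genes form a cluster of near copies on chromosome 16.

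The genes with the highest ratio of D7 CTX over naive BM came from this cluster, so the sequences upstream of 3 of its members are shown first. All 7 stefin A genes of the libraries lie within 298582 bases of chromosome 16, from 36156811 to 36455392 (GENCODE M21 on GRCm38). Stfa2l1 (ENSMUSG00000059657, 36156811 to 36161953) and Gm5483 (ENSMUSG00000079597, 36184212 to 36188111, Cstdc4 in RefSeq) lie on the plus strand. Stfa3 (ENSMUSG00000054905, 36450537 to 36455392), Stfa2 (ENSMUSG00000022902, 36403992 to 36408457) and BC100530 (ENSMUSG00000071561, 36359382 to 36367748, Cstdc5 in RefSeq) lie on the minus strand. Each line below is the strand of the gene, 5′ to 3′, with 100 bases before the RefSeq start and 10 from it (GRCm38.p6). Capitals mark the longest stretch that the upstream windows of all 5 of these genes share, 13 bases with an A- and T-rich core.
Stfa3, chr16:36455383-36455492, minus strand: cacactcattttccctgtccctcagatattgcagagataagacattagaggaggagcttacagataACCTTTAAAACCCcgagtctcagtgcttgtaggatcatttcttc
Stfa2l1, chr16:36156711-36156820, plus strand: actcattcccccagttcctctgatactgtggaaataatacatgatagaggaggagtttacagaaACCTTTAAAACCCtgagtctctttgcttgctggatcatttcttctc
Gm5483, chr16:36184112-36184221, plus strand: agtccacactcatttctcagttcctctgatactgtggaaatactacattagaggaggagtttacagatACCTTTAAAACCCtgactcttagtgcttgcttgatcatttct
The shared stretch begins 34, 36 and 32 bases before the start of Stfa3, Stfa2l1 and Gm5483, and 32 and 12 bases before that of Stfa2 and BC100530, whose windows overlap a transcribed part of GENCODE and are not printed. It was found in 9 of the 32851 RefSeq promoter windows of 300 bases. The 110 bases of Stfa2l1 matched those of Stfa3 at 78.9% of aligned positions, and those of Gm5483 at 78.1%. The letters TTNNGNAA, a loose form of the C/EBP site, were found on either strand in 4 of the 5 windows of 300 bases and in 40.7% of all windows. The letters GAGGAA, a core of PU.1 sites, were found in 5 of 5 and in 28.3%. These matches describe the sequences and say nothing about binding. The copies share much of their transcripts, and 62.2% of the 50-base words in the last 300 bases of BC100530 and 24.3% of those of Stfa2 also occur in another copy. For Stfa3 and Gm5483 this share was 0%, so the split of UMIs is least uncertain for these.

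The kept cells held 46065849 UMIs in naive and 67921924 in D7 CTX BM, with a median of 3953.5 and 7189.5 UMIs per cell. Levels below are UMIs summed over cells per 1000000 UMIs (CPM), and log2 ratios are D7 CTX over naive with 1 CPM added to each level. There was 1 library per condition, so no test was possible and how far mice vary is not known. Intervals in parentheses are 95%, from exact Poisson, Clopper-Pearson or conditional methods, and cover counting error only. A gene is called higher or lower at 1 log2 unit or more, counting only genes with 200 or more UMIs in both libraries together and 20 CPM or more in either. The 20 most abundant genes took 26.6% of naive and 46.0% of D7 CTX UMIs, and the median share of mitochondrial UMIs was 3.03% and 0.97%. Of all barcodes, 16 occurred in both libraries.

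To see which cells were present, each cell was thinned to 1000 UMIs and placed in a gate by its summed UMIs of a few marker genes. Cells below 1000 UMIs were left out, so that 6819 naive and 8217 D7 CTX cells were gated. D7 CTX BM was dominated by myeloid cells, mainly neutrophil precursors, and had few cells of the B, T and erythroid lineages. Gates of the myeloid lineages held 52.9% (51.7 to 54.1) of the naive cells, and 92.7% (92.1 to 93.2) of those from D7 CTX BM. For every marker set and in both libraries, all of the further marker genes kept for checking were higher inside the cells checked than outside them. The gates with specific granule transcripts were checked together, and the late marker genes only in cells with late transcripts alone.

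Lymphoid and erythroid shares were far lower in D7 CTX BM. The B lineage gate (Cd79a, Cd79b, Ebf1, Vpreb1, Vpreb3, Igll1) held 2008 naive cells, 29.4% (28.4 to 30.5), and 192 D7 CTX cells, 2.34% (2.02 to 2.69). The hemoglobin-rich gate held 374 cells, 5.48% (4.96 to 6.05), and 15 cells, 0.183% (0.102 to 0.301), the lowest log2 ratio of shares at -4.91 (-5.76 to -4.17). T and NK cells, gated on Cd3e, Cd3g, Trbc1, Trbc2 and Klrd1, went from 167 cells to 29, a log2 ratio of -2.79 (-3.42 to -2.22). Smaller differences were seen for basophils, with 56 and 18 cells, and for plasmacytoid dendritic cells, with 122 and 92 cells and a log2 ratio of -0.68 (-1.08 to -0.27). Macrophages with C1q transcripts numbered 13 and 6, and the interval of their ratio included 0.

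Among myeloid cells, the early and middle steps of the neutrophil lineage gained most. The azurophil-high progenitors (Mpo, Elane, Prtn3, Ctsg) went from 211 cells, 3.09% (2.70 to 3.53), to 605 cells, 7.36% (6.81 to 7.95). Cells with specific granule transcripts (Camp, Ngp, Ltf) and fewer than 5 UMIs of the late genes named below were called specific granule only. They went from 16.1% (15.2 to 16.98) to 36.7% (35.6 to 37.7) and were the largest group on day 7. Cells with both specific granule and late transcripts (Retnlg, Il1b, Cxcr2, Csf3r, Mmp9) went from 11.5% (10.7 to 12.3) to 23.7% (22.8 to 24.6). The shares of late only neutrophils and of monocytes (Csf1r, Ms4a6c, F13a1, Ccr2, Fn1, Ly86) were close between the libraries by comparison. Late only cells were 15.0% (14.1 to 15.8) and 16.5% (15.7 to 17.3), and monocytes 7.23% (6.63 to 7.87) and 8.47% (7.88 to 9.09).

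The direction for these last groups depended on the denominator. Counted among myeloid cells alone, late only neutrophils went from 28.3% (26.9 to 29.8) to 17.8% (16.9 to 18.6), a log2 ratio of -0.67, and monocytes from 13.7% (12.6 to 14.8) to 9.14% (8.50 to 9.81), a ratio of -0.58. Azurophil-high progenitors, at 0.44, and specific granule only cells, at 0.38, kept a ratio above 0. Shares add up to a whole, so from shares alone a gain in 1 lineage cannot be told apart from a loss in another, and cell numbers were not analysed here.

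**Figure D1:**
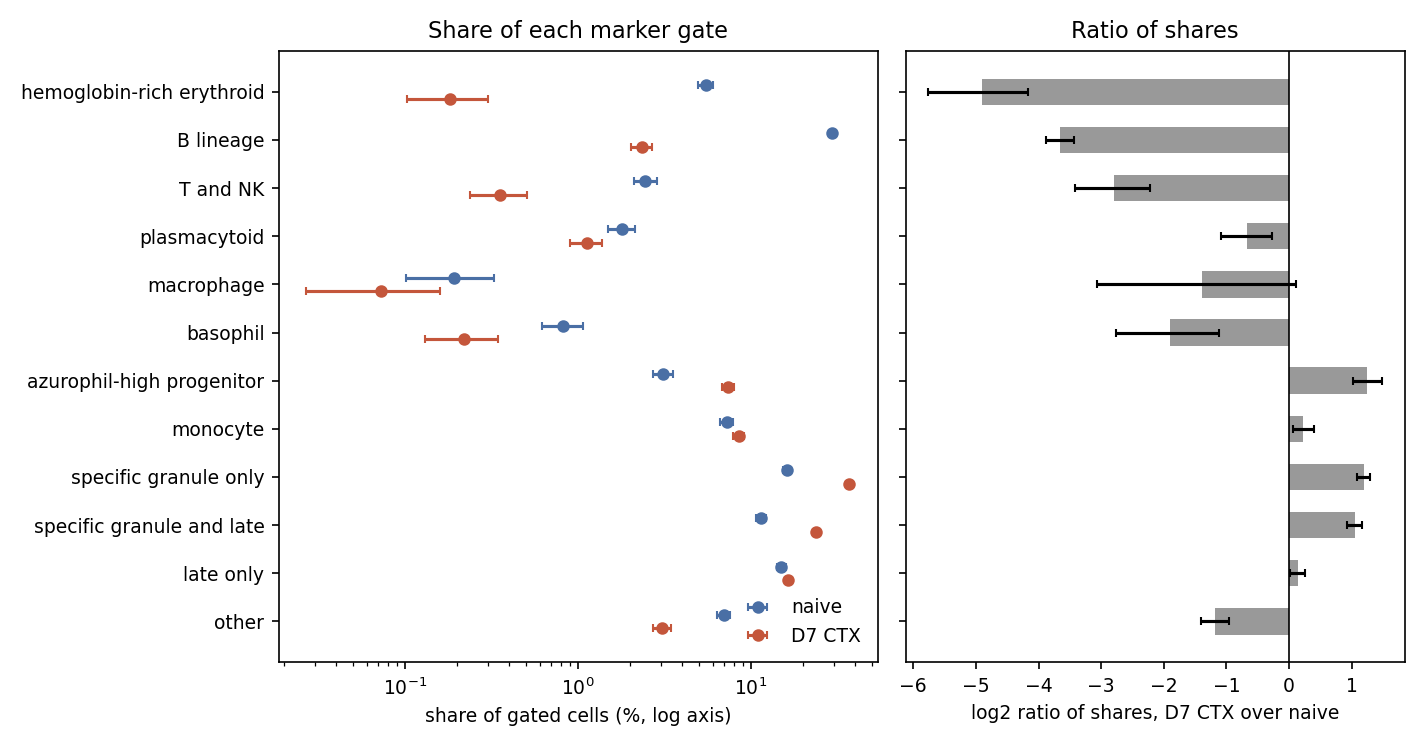
Left, share of gated cells (%, log axis) in each marker gate for the naive and D7 CTX library, with 95% Clopper-Pearson intervals; right, the log2 ratio of the shares with its interval. The B lineage and hemoglobin-rich gates lie furthest to the left, at -3.66 and -4.91, and azurophil-high progenitors furthest to the right, at 1.25.

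Cells of most gates held more UMIs on day 7. The median UMIs per cell went from 4060 to 6373 in specific granule and late cells, from 2417 to 4115 in late only cells and from 2859.5 to 6174 in B lineage cells. Azurophil-high progenitors were the exception among the gates described below, at 11770 in naive and 10751 in D7 CTX BM. The libraries also differed in sequencing yield, which cannot be told apart from RNA content here. Cells in cycle were counted as those with at least 2 UMIs from 17 genes of G2 and mitosis at 1000 UMIs per cell. Their share was 35.9% and 53.1% in B lineage cells, 66.9% and 71.7% in specific granule only cells and 68.7% and 62.1% in azurophil-high progenitors. Much of this count came from Hmgb2, a chromatin protein that is abundant in immature neutrophils. Without it, a choice made after the values were seen, the shares were 24.9% and 41.1%, 32.4% and 37.0%, and 38.9% and 33.9%.

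Over all kept cells, 79 of 5608 genes were higher in D7 CTX BM, or 1.41%, and 1250 were lower, or 22.3%. The median of all genes was -0.58. This split depends on the scaling. Leaving the 20 most abundant genes out of the total gave 382 higher and 628 lower, and scaling by the median of gene ratios, which moved all genes by 0.66, gave 626 higher and 324 lower. In bulk sums of this kind, fewer cells of a type and less RNA per cell cannot be told apart.

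The stefin A genes and a few others led the list. Stfa3 went from 25.01 CPM (23.6 to 26.5) to 471 CPM (466 to 476), a log2 ratio of 4.18. Stfa2 went from 42.7 CPM (40.9 to 44.7) to 649 CPM (643 to 655), at 3.89. BC100530, the most abundant member, went from 275 CPM (269.9 to 279) to 2525 CPM (2513 to 2537), at 3.20. BC117090 (2.65), Stfa2l1 (2.11) and Gm5483 (1.63) followed, so that 6 of the 6 stefin A genes counted were called higher. Stfa1 had too few UMIs to be counted, with 11 in naive and 197 in D7 CTX BM. Outside the cluster, Asprv1, an aspartic protease best known from skin, went from 21.3 CPM (19.98 to 22.7) to 199 CPM (196 to 203), a ratio of 3.17. Ceacam10, a member of the carcinoembryonic antigen family, was at 24.6 and 105 CPM (2.05), Mapk13, a p38 kinase, at 43.0 and 127 CPM (1.54), and F630028O10Rik at 186 and 534 CPM (1.52).

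Most other genes in this direction were neutrophil granule and cytosol genes. Of the 8 specific granule genes, 5 were called higher and none lower, with a list median of 1.08. Ltf, the iron-binding lactoferrin, was at 1.16, Lcn2, which binds bacterial siderophores, at 1.11, and Chil3, a chitinase-like protein, at 1.29. Camp, the cathelicidin, stopped just short at 0.99. The azurophil granule genes were nearer to 0, with none of 6 called and a median of 0.62, from 0.47 for Elane to 0.79 for Prtn3. S100a8 and S100a9, whose products form calprotectin, were at 1.11 and 1.16, and 3 of the 6 S100 genes were called higher. Cebpe, a transcription factor needed for specific granules, went from 159 to 351 CPM, a ratio of 1.14. Transcripts of mature neutrophils did not share in this, with none of 10 called and a median of 0.05.

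The lowest ratios belonged to B cell and red cell genes. Ms4a1, the B cell antigen CD20, went from 62.7 CPM (60.4 to 65.0) to 0.839 CPM (0.636 to 1.09), a ratio of -5.11 and the lowest of all genes counted outside immunoglobulins and hemoglobins. The other 9 of the 10 lowest were red cell genes, among them Ermap, Slc4a1, which encodes the band 3 anion exchanger, the water channel gene Aqp1 and Alas2, the first enzyme of erythroid heme synthesis. All 13 erythroid genes, all 7 early B genes and all 6 late B genes counted were called lower, with medians of -4.68, -2.61 and -3.49. Of the S phase genes 12 of 16 were called lower, with a median of -1.38. Genes of G2 and mitosis lay near the background, with 4 of 17 called lower beside 22.3% of all genes and a median of -0.70 beside -0.58. Mki67, a nuclear protein of cycling cells, had the lowest ratio of the G2 and mitosis genes and went from 622 to 194 CPM (-1.68). Of the heat shock chaperones 3 of 5 were called lower, and of the MHC class II genes 4 of 5. Scaling by the median of gene ratios moved these ratios up and left 5 of the S phase genes called.

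**Figure D2:**
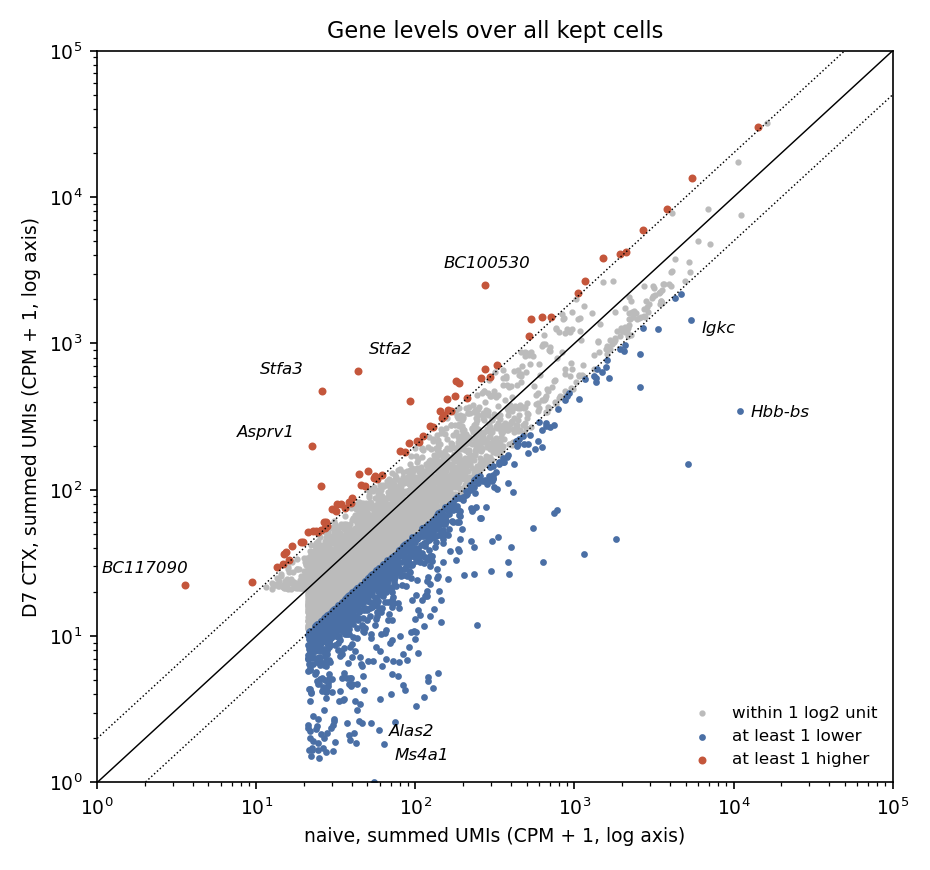
Each point is 1 gene, with its level in naive BM on the x axis and in D7 CTX BM on the y axis (CPM + 1, log axes). Stefin A genes lie above the diagonal, up to 4.18 log2 units for Stfa3, and erythroid and B cell genes lie below it, down to -5.11 for Ms4a1.

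How far the change in cell makeup alone would give these ratios was computed from naive levels. For each gene, the naive level of each gate was weighted by the share of UMIs that the gate held in D7 CTX BM. Of the 1250 genes lower in D7 CTX BM, 1202 lay within 1 log2 unit of this expected level, or 96.2%, and of the 79 higher genes 71 did, or 89.9%. Over all counted genes it was 99.0%. Makeup alone would have put fewer genes past the limit, 765 of the 1250 and 24 of the 79, with a median expected ratio of -1.09 and 0.91. For S phase genes the expected median was -1.32, near the observed -1.38, and for specific granule genes it was 1.11 against 1.08. Mature neutrophil genes had an expected median of 0.67 and an observed one of 0.05, and the median difference between observed and expected was -0.54. It was larger for the erythroid (-1.10), late B (-0.76), basophil and eosinophil (-0.72) and MHC class II lists (-0.62). The 8 higher genes at least 1 unit above expectation were Stfa3 (3.26 above), Stfa2 (3.19), Asprv1 (2.53), BC100530 (2.38), BC117090 (1.99), Stfa2l1 (1.43), Ceacam10 (1.02) and, just past the limit, Gm5483. In the other direction, Thbs1, which encodes the secreted matrix protein thrombospondin 1, would have been at 139.70 CPM from makeup and was at 11.95 CPM, 3.44 log2 units below. Gate levels were taken from these same libraries, so the expected values are a description. Genes that set the gates were kept here, among them Camp, Ngp and Ltf of the specific granule list and members of the erythroid and B lists. For such genes, nearness to the expected level is partly built in.

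**Figure D3:**
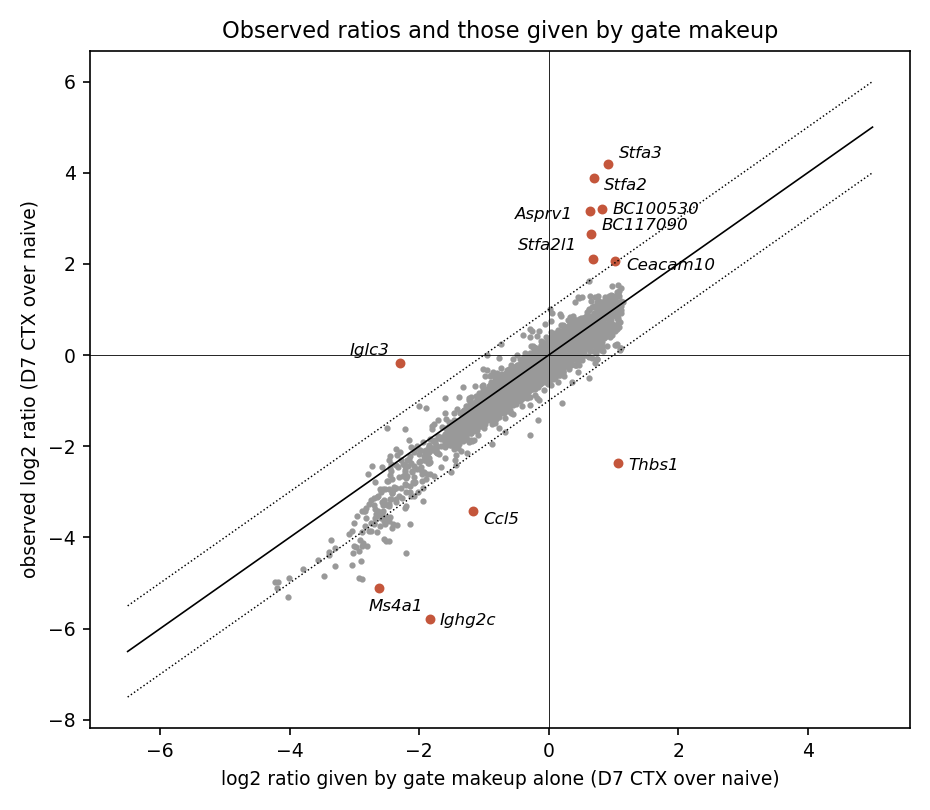
Each point is 1 counted gene, with the log2 ratio given by gate makeup alone on the x axis and the observed log2 ratio on the y axis, D7 CTX over naive. Most points follow the diagonal, 99.0% of them within 1 unit, while Stfa3, Stfa2, Asprv1 and BC100530 lie 2.38 to 3.26 units above it and Thbs1 3.44 below.

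Within the neutrophil gates, 5 of 5 stefin A genes counted were called higher in specific granule only cells, 6 of 6 in specific granule and late cells and 4 of 6 in late only cells. Summed over the 7 genes, they went from 162 to 1838 CPM in specific granule only cells, from 1661 to 9550 CPM in specific granule and late cells, and from 7186 to 20814 CPM in late only cells. The level thus grew along maturation in both libraries. In specific granule only cells Stfa2 went from 2.94 CPM (1.94 to 4.28) to 139 CPM (135 to 144), a ratio of 5.15, and Gm5483 from 4.68 CPM (3.39 to 6.31) to 159 CPM (154 to 163), at 4.81. These levels were near those of B lineage cells, which held Stfa2 at 4.05 and 113 CPM and Gm5483 at 27.0 and 134 CPM, so the ratios are uncertain in this gate. In late only cells the same genes were at 569 and 3572 CPM for Stfa2 (2.65), and at 2438 and 3285 CPM for Gm5483, which was not called at 0.43, nor was Stfa2l1 at 0.81. Stfa3 differed more evenly, with ratios of 3.44 in specific granule only, 3.41 in specific granule and late and 2.98 in late only cells. Its levels in specific granule only cells, 12.8 and 150 CPM, stood beside 1.06 and 99.8 CPM in B lineage cells, so that ratio is uncertain too. Asprv1 went from 37.6 to 336 CPM in specific granule and late cells (3.12) and from 259 to 1284 CPM in late only cells (2.31).

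More cells carried these transcripts as well. At 1000 UMIs per cell, at least 1 stefin A UMI was found in 8.93% of naive and 27.2% of D7 CTX specific granule only cells. The shares were 39.3% and 60.1% in specific granule and late cells, and 71.6% and 87.6% in late only cells. Without thinning they were 30.1% and 56.0%, 55.3% and 78.2%, and 78.2% and 93.3% in the same order. For Stfa3 alone the share went from 8.33% to 37.3% of late only cells. B lineage cells, which should lack the transcripts, gave 3.64% and 5.73% (2.89 to 10.02), below every neutrophil gate of the same library, and 8.37% and 23.4% without thinning. In the day 2 library, from the same design, Stfa3 stood at 68.9 CPM, Stfa2 at 96.3 CPM and BC100530 at 478 CPM over all cells, between the naive and the day 7 values, while BC117090 was at 29.7 CPM, above its 21.3 CPM on day 7.

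Outside the neutrophil gates the stefin A levels in D7 CTX BM were 765 CPM in B lineage cells, 543 CPM in azurophil-high progenitors and 316 CPM in monocytes, against 89.1, 37.1 and 107 CPM in naive BM. Levels in progenitors and monocytes did not exceed that of B lineage cells on day 7, but lay above the 38.5 CPM of T and NK cells (13 UMIs) and the 138 CPM of cells in no gate. The remaining gates lay on both sides. Plasmacytoid cells were at 595 CPM, above progenitors and monocytes, and macrophages at 470 CPM from 9 UMIs. Basophils were at 179 CPM and hemoglobin-rich cells at 145 CPM. How much of the levels in progenitors and monocytes came from other cells was not tested. The share of cells with a stefin A UMI at equal depth was 9.26% (7.07 to 11.9) in D7 CTX progenitors and 7.47% (5.63 to 9.68) in monocytes, both inside the interval of B lineage cells. S100a8 and S100a9 together went from 15922 to 28539 CPM in B lineage cells, beside 358058 and 379778 CPM in late only cells. Other gates did not all move this way, and the same sum went from 28133 to 14675 CPM in T and NK cells and from 19619 to 15776 CPM in basophils. Neutrophil transcripts were thus found in every gate, and their part in the results of the other gates was not tested. In sorted CD11b+Ly6Chi monocytes, whose treated library has no day in the labels, Stfa2 was at 0.0898 and 6.67 CPM and BC100530 at 2.33 and 21.4 CPM. Stfa3 was at 1.08 and 3.53 CPM, while Gm5483, the only stefin A gene to go the other way, was at 5.12 and 4.40 CPM. All of these levels lay far below those of whole BM.

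**Figure D4:**
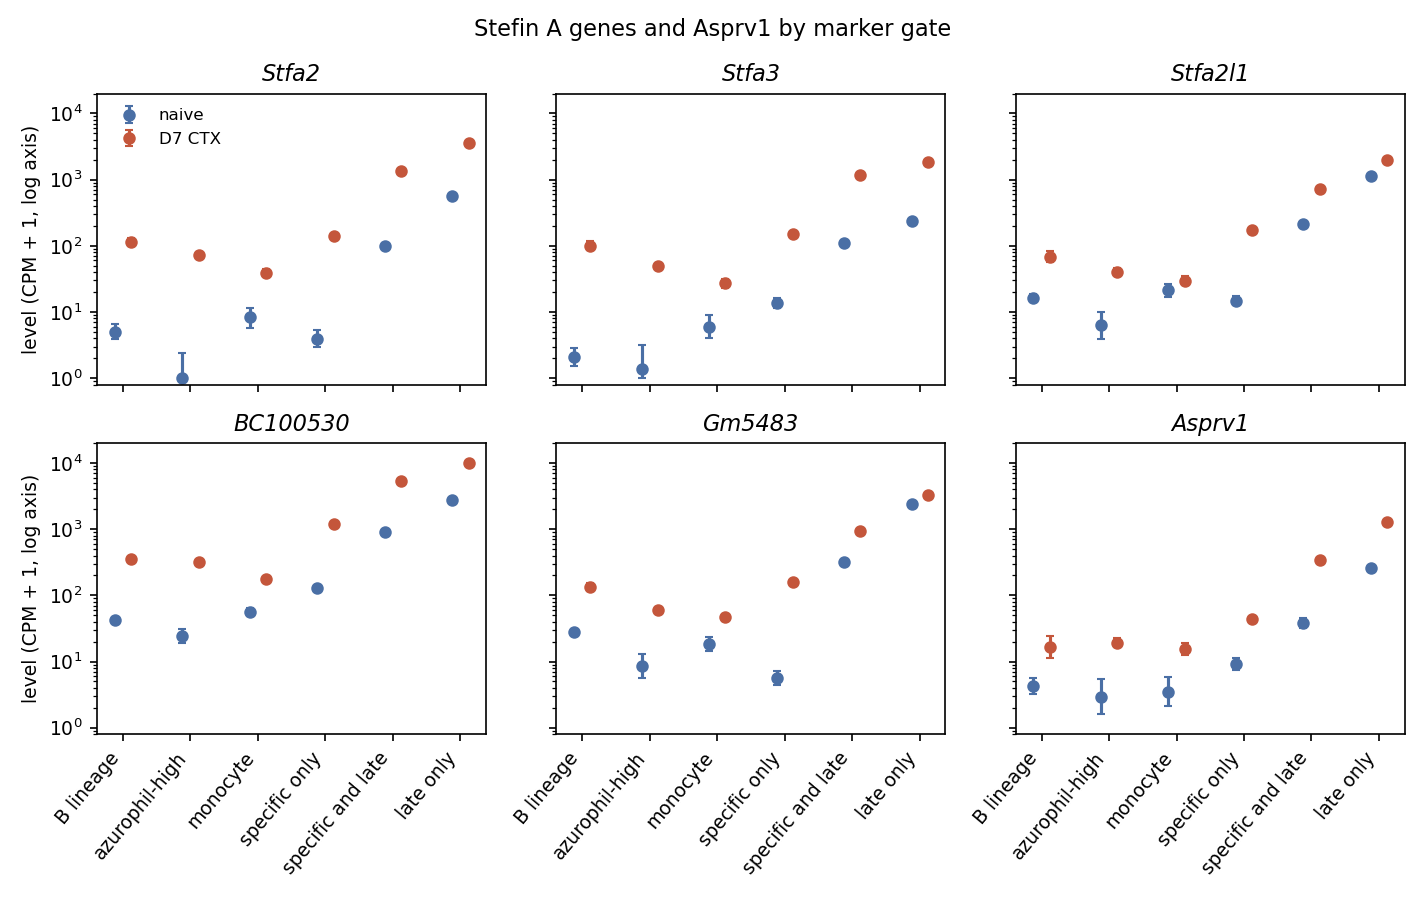
Level (CPM + 1, log axis) of stefin A genes and Asprv1 in 6 marker gates of the naive and D7 CTX library, with 95% Poisson intervals. D7 CTX points lie above naive points in each neutrophil gate, and Stfa2 differs by 3.75 log2 units in specific granule and late and by 2.65 in late only cells, where its levels are far above those of B lineage cells.

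Among specific granule only cells, 10 of 3753 genes were higher, or 0.266%, and 17 lower, or 0.453%. Scaling by the median of gene ratios gave 10 higher and 11 lower. The 5 highest were stefin A genes. The specific granule genes that did not define the gate were level, with a median of -0.05 over those counted, from Chil3 at 0.14 to Olfm4, a glycoprotein of a subset of neutrophils, which went from 717 to 358 CPM, just short of the limit. The lowest were Thbs1, from 78.3 CPM (72.7 to 84.2) to 5.65 CPM (4.83 to 6.57), and the MHC class II genes H2-Eb1, Cd74, H2-Aa and H2-Ab1. Cd74, the invariant chain, was at 57.9 and 5.15 CPM. The B cell light chain Igkc was lower in the same cells, at 141 and 13.8 CPM, and hemoglobin transcripts went from 233 to 17.7 CPM. These transcripts, of lineages that were scarce on day 7, moved with the MHC class II genes in this gate. In specific granule and late cells Igkc fell from 244 to 17.4 CPM and hemoglobin from 329 to 22.2 CPM. The sum of the same MHC class II genes rose there, from 10.2 to 24.7 CPM. In late only cells this sum fell from 58.6 to 41.7 CPM, and Igkc from 399 to 22.9 CPM. How much RNA of other cells added to the MHC class II genes was not tested.

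Among specific granule and late cells, 24 of 3506 genes were higher, or 0.685%, and 38 lower, or 1.08%. This split also turned with the scaling, to 46 higher and 16 lower with the median of gene ratios and to 51 and 23 without the 20 most abundant genes. Thbs1 was lowest and went from 401 CPM (380 to 423) to 20.6 CPM (18.3 to 23.2). At 1000 UMIs per cell it was found in 28.5% of the naive cells of this gate and in 2.15% of the treated ones, and without thinning in 57.7% and 6.98%, so the difference was spread over many cells. Monocytes held Thbs1 at 84.4 and 50.2 CPM and B lineage cells at 6.74 and 0.584 CPM, and the day 2 library held it at 174 CPM over all cells. The early response factor Egr1 went from 84.0 to 18.1 CPM (-2.15), the GABA receptor gene Gabbr1 was at -1.43, Il1rn, the interleukin 1 receptor antagonist, at -1.40, and the metalloprotease gene Adam19 at -1.38.

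Late only neutrophils differed most among the myeloid gates, with 21 of 3030 genes higher, or 0.693%, and 63 lower, or 2.08%. The split was 28 and 35 with the median of gene ratios, and 28 and 41 without the 20 most abundant genes. Thbs1 went from 185 CPM (169 to 202) to 2.98 CPM (1.73 to 4.77), a ratio of -5.55. Genes that leukocytes induce on stimulation followed, with Ptgs2, the inducible cyclooxygenase, at 180 and 42.2 CPM (-2.07), Egr1 at 546 and 167 CPM (-1.70) and Il1rn at 115 and 37.1 CPM (-1.60). Ccno, a cyclin family gene, completed the 5 lowest at -1.59. Of the 7 mature neutrophil genes counted that did not define the gate, 2 were called lower and the median was -0.96. The chemokine gene Cxcl2 was at 704 and 252 CPM, a ratio of -1.48 (-1.58 to -1.38), and the formyl peptide receptor gene Fpr2 at 516 and 237 CPM, at -1.12 (-1.23 to -1.01). Trem1, an activating receptor, was just short of the limit, at 214 and 109 CPM (-0.96). All 7 ratios lay below 0, up to -0.28 for Fpr1. In the direction of D7 CTX, after Stfa3, Stfa2 and Asprv1, came Wfdc17, a small protease inhibitor, at 63.5 and 241 CPM (1.91) and Golga4, a Golgi protein, at 10.3 and 41.3 CPM (1.91).

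In azurophil-high progenitors, 29 of 4076 genes were higher, or 0.711%, and 12 lower, or 0.294%. The split was 36 and 8 with the median of gene ratios and 24 and 17 when cells were weighted equally. Of the cells that met the limit of this gate, 95 of 225 naive and 265 of 609 D7 CTX cells also met that of another gate. Without cells of several gates, 130 naive and 344 D7 CTX cells were left, and the split was 20 and 17 of 2668 genes. The 5 highest were stefin A genes at the levels described above, with Stfa2 at 0 UMIs in naive and 496 UMIs in D7 CTX cells. Leaving these aside, early response genes were higher, 6 of 13 with a median of 0.91. Klf2, a Kruppel-like factor, went from 31.0 to 104 CPM (1.71), Fosb from 8.80 to 26.5 CPM (1.49), and Dusp1, a phosphatase of MAP kinases, from 22.6 to 60.6 CPM (1.39). Lowest was Prg2, the eosinophil major basic protein, at 115 CPM from 300 UMIs in naive and 1.17 CPM from 8 UMIs in D7 CTX cells (-5.74). Fkbp11, a chaperone of the secretory path, was at 72.4 and 18.8 CPM (-1.89), Dnph1 at -1.35, Lars2 at -1.31 and Spata7 at -1.16. The azurophil granule genes Ms4a3 (-0.08) and Prss57 (-0.21), which did not define the gate, were level.

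Among monocytes, 22 of 5273 genes were higher, or 0.417%, and 8 lower, or 0.152%. Weighting cells equally gave 15 and 10. Chil3 went from 132 CPM (121 to 145) to 594 CPM (574 to 615), a ratio of 2.16, and Lcn2 from 201 to 523 CPM (1.37). The specific granule transcripts Camp, Ngp and Ltf summed to 1524 and 4023 CPM in monocytes and to 3637 and 7182 CPM in B lineage cells. Their sum went the other way in T and NK cells, at 9710 and 2800 CPM, and in basophils, at 6438 and 3414 CPM. In sorted monocytes Camp was at 378 and 604 CPM and Ngp at 332 and 579 CPM. How much RNA of other cells added to Chil3 and Lcn2 in this gate was not tested. In the sorted monocytes Chil3 stood at 307 and 508 CPM, a ratio of 0.72. Early response genes were higher in 3 of 16 cases, with a median of 0.55, led by Fosb at 62.6 and 177 CPM (1.48), Klf2 at 199.8 and 437 CPM (1.13) and Jun at 439 and 891 CPM (1.02). In sorted monocytes this list had a median of -0.48 with 3 of 16 genes called lower, the opposite direction. Scd2, a fatty acid desaturase, was at 18.7 and 52.7 CPM (1.44).

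Interferon-stimulated genes of monocytes were lower. Of 8 counted, 2 were called lower and none higher, with a median of -0.74. Rtp4 went from 38.6 to 12.6 CPM (-1.54) and Ifi27l2a from 1806 to 884 CPM, a ratio of -1.03 (-1.08 to -0.98). Ifi44, an interferon-stimulated gene outside the list, was among the 5 lowest, at 130 and 56.5 CPM (-1.19), with Rnf144b (-1.35), Pgap1 (-1.13) and Cpt1a (-1.11), the carnitine palmitoyltransferase of fatty acid oxidation. The direction was the same in sorted monocytes, where the list had a median of -0.58 with 1 of 8 called lower, Rtp4 at -1.12. MHC class II genes had a median of -0.80 in the monocyte gate with none of 6 called, and Cd74 was at 795 and 405 CPM (-0.97).

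**Figure D5:**
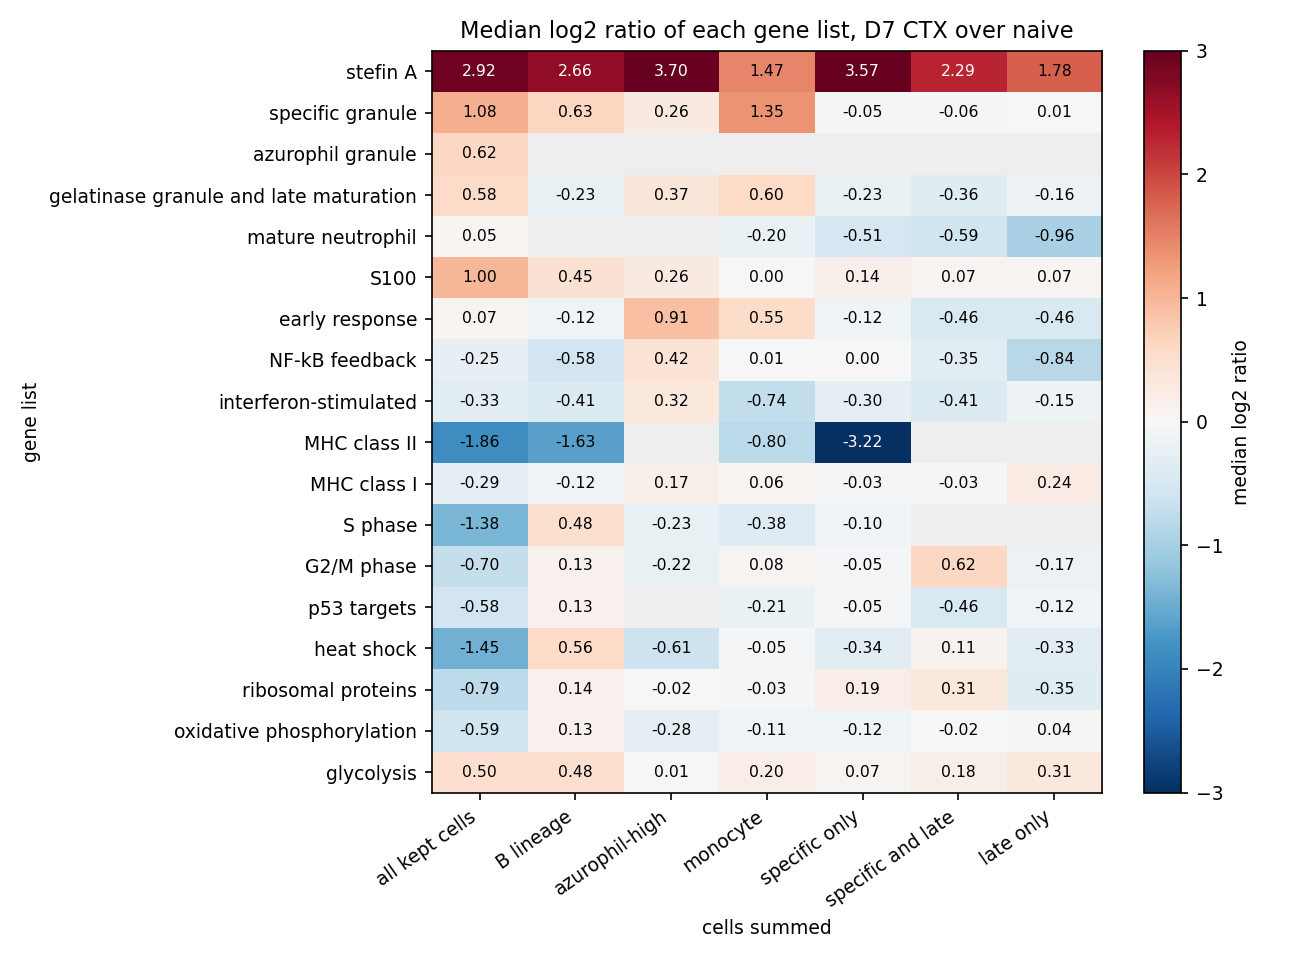
Median log2 ratio of each gene list, D7 CTX over naive, over all kept cells and within 6 marker gates, as a color scale with the value in each cell. Stefin A is above 0 in every column, from 1.47 in monocytes to 3.70 in azurophil-high progenitors, while the median of the S phase list is -1.38 over all kept cells and 0.48 in B lineage cells.

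Within the B lineage gate, genes of mature B cells were lower in D7 CTX BM. Those of early precursors lay nearer to 0 by their median and went in both directions. Of 6114 genes, 22 were higher, or 0.36%, and 156 lower, or 2.55%. Weighting cells equally gave 97 and 161. The late B list had a median of -0.88 with 3 of 7 called lower, and the 4 early B genes counted that did not define the gate had a median of -0.14. Ms4a1 went from 261 to 25.1 CPM (-3.33), Fcer2a, the low affinity IgE receptor CD23, from 31.7 to 2.92 CPM (-3.06), and the adaptor Bank1 from 75.6 to 10.5 CPM (-2.74), while Fcrl1 was at -2.55. The chemokine gene Ccl5 had 213 UMIs in naive and none in D7 CTX cells. Of the MHC class II genes 6 of 7 were called lower, with a median of -1.63, and Cd74 stood at 1017 and 215 CPM. On the other side were Myl10, a myosin light chain, at 12.04 and 75.9 CPM (2.56), and, besides stefin A genes, Igfbp4 (1.28), Socs2 (1.16), Myc (1.08) and the cyclin gene Ccnd2 (1.07). Dntt, which adds bases at V(D)J joints in pro-B cells, was at 124 and 224 CPM, a ratio of 0.84 (0.68 to 1.02). Rag1, another of the early B genes counted, went the other way, at 149 and 95.2 CPM. S phase genes had a median of 0.48 with none of 17 called. Pax5, the factor of B cell commitment, was at 473 and 355 CPM (-0.41).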

How the data were processed

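The authors deposited counts of UMIs per gene and barcode, made per the labels with the 10x Genomics 3′ V3 chemistry and Cell Ranger 3.1, with no normalization. The processing notes also list Seurat 5.0, of which nothing is in these values. The positions and builds named in the report come from GENCODE M21, which held 99.6% of the 31053 gene identifiers. The members, the lists and the tests were chosen with earlier results of these data known. The limits of the gates, the removal of Nkg7 and Cd3d from the T and NK gate, and the sterol list were set after values were seen.

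The study states more cells for both libraries than the deposited matrices hold barcodes. Cells were filtered as in the study's methods, and those that met several gates went to the first in a fixed order from erythroid to late neutrophil (319 naive and 349 D7 CTX cells). The limits, at 1000 UMIs per cell, were 20 UMIs for hemoglobin and for specific granule genes, 8 for azurophil, 5 for late neutrophil and basophil, 2 for T and NK and 3 for the other gates. Genes that set any gate were left out of counts within gates. The genes named are the 10 highest and 10 lowest ratios over all cells and the 5 highest and lowest within each gate, with immunoglobulin, hemoglobin and Y-linked genes and Xist apart, and members of the 36 lists that are described. Doublets were not removed. Scrublet in scanpy 1.11.5 called 235 naive but only 5 of the 8290 D7 CTX cells at its own threshold, too few to use, and an alternative removed the 435 and 571 highest scores. Python 3.11.15, numpy 2.4.6, scipy 1.17.1 and pandas 2.3.3 were used, and the counting was tested on simulated data. Flow cytometry, ATAC-seq and patient data were not analysed here. A few genes are not reported here.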

Additional observations from a re-analysis of the deposited data

How the results depend on the processing

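No paired analysis was possible because each condition had 1 library, and for the same reason no replicate could be left out. Across the alternatives, 154 of 181 values that answer a comparison stayed within their counting interval or, for counts, within 1.5 times, 25 moved and 2 changed sign. The 2 that changed sign were the log2 ratios of shares counted among myeloid cells alone, -0.58 for monocytes and -0.67 for late only neutrophils. The same denominator gave 0.44 for azurophil-high progenitors, 0.38 for specific granule only and 0.24 for specific granule and late cells. The T and NK ratio was -3.60 with gates on unthinned UMIs, -3.45 with thinning to 2000 UMIs and -4.36 with doubled limits. Thinning to 2000 UMIs gave 1.04 for specific granule only, 0.91 for specific granule and late and 0.41 for late only cells, and doubled limits 1.22 for specific granule and late cells. The cycling share then differed by -15.1 percentage points in azurophil-high progenitors and -6.38 in late only cells, against -6.57 and -2.11 at 1000 UMIs.

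Over all cells, the mean of the cells' CPM gave 46 genes higher, the total without the 20 most abundant genes 382 higher and 628 lower, the median of gene ratios 626 and 324, and no filter on low genes 2793 lower. Lower S phase genes numbered 7 without the abundant genes and 5 with the median of gene ratios, against 12. Summed over the 5 myeloid gates, 106 genes were higher and 138 lower. The median of gene ratios gave 77 lower, no filter 794 and 1455, and subtraction of the B lineage level 429 and 653. The medians of the stefin A list stayed between 1.74 and 4.71 in the 3 neutrophil gates under every alternative tried. The causes were not tested. Alternatives to the cycling list, to cells of several gates and to the limits behind the makeup were added after the data had been seen.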

Other observations

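Genes of sterol synthesis and uptake lay above the rest of the transcriptome in D7 CTX BM. The list of 24 genes was put together after some of its members had been seen among the higher genes, so its counts are a description. Over all kept cells 9 of the 10 counted had a ratio above 0 and 3 were called higher, with a median of 0.48 beside -0.58 for all genes. In monocytes all 13 counted lay above 0, with a median of 0.77. There Msmo1, a sterol demethylation enzyme, went from 14.8 CPM to 41.1 CPM (1.41), Cyp51 from 10.3 to 28.6 CPM (1.39) and Idi1, an isomerase of the isoprenoid path, from 18.7 to 42.7 CPM (1.15). In sorted monocytes 11 of 13 lay above 0, with a median of 0.33.

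Cells rich in immunoglobulin, chosen after values were seen as those with at least 200 of 1000 UMIs from immunoglobulin genes, numbered 38 of 6819 in naive BM, 0.557%, and 17 of 8217 in D7 CTX BM, 0.207% (0.121 to 0.331). They carried 75.7% and 91.2% of all immunoglobulin UMIs. Of the 2485 Ighg2c UMIs in naive BM, 2480 came from 1 cell. Over all cells the light chain gene Iglc3 went from 87.4 to 77.2 CPM, beside a log2 ratio of -3.66 for the B lineage share. Cd3d, a T cell receptor subunit, was at 404 and 391 CPM in specific granule and late neutrophils, where Cd3e had 0 UMIs in both libraries and Cd3g had 8 and 49.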
